A study of Mus musculus with 8 samples.

Results

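The genes described here are 32 genes of cholesterol and fatty acid synthesis, out of 21154 genes in the deposited table of osteoblast RNA-seq counts. They were taken by name, as genes that encode the enzymes of both pathways and the proteins that switch them. No measured value set the membership, but the set was chosen with earlier results of these data known. Of the 32, 18 encode sterol enzymes from acetoacetyl-CoA to cholesterol, 8 encode enzymes of fatty acid synthesis, desaturation and elongation, and 6 encode regulators or a sterol carrier. All 32 passed the filter on low counts that left 15373 genes for testing.

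The study compared osteoblasts of doxorubicin-treated and PBS-treated female mice. All mice were of the Col2.3-GFP genotype, in which a fragment of the Col1a1 promoter drives green fluorescent protein in cells of the osteoblast lineage, and no other allele was given in the labels. Doxorubicin, an anthracycline that blocks topoisomerase II, was injected intravenously 4 times at 5 mg/kg with 1 week between injections (DOX, n = 5), and the controls received PBS by the same route and schedule (PBS, n = 3). The mice were 8 to 10 weeks old at treatment and were killed 8 weeks after it. Marrow was spun out, bone chips were digested and GFP-positive cells were sorted, so cells that left the bone with the marrow were not measured. The labels place PBS replicate 1 and DOX replicates 1 and 2 in batch 1, and PBS replicates 2 and 3 and DOX replicates 3 to 5 in batch 2. DOX replicate 1 is labelled DOX in its title and PBS in its treatment tag. It was counted as DOX by its title. Medians of the pooled fold changes under both other readings, left out or taken as PBS, are given for each of the 3 sets of genes. Differences within batches, and whether they changed with batch, were not computed with it taken as PBS.

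Cells adjust both pathways through the SREBP transcription factors. When sterol in the endoplasmic reticulum is low, SCAP carries SREBP precursors to the Golgi, where they are cut and release the active factor; when sterol is plentiful, the INSIG proteins hold SCAP and SREBP in place. SREBP2, from Srebf2, acts mainly on genes of sterol synthesis, and SREBP1, from Srebf1, mainly on genes of fatty acid synthesis and desaturation. Osteoblasts secrete large amounts of collagen and build membrane for that secretory route.

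Libraries held 39419027 to 44299591 counts, of which the 32 genes together took 0.0945% to 0.129%. The osteoblast markers, all present, summed to 175046 to 522810 CPM, which are counts scaled to library size by trimmed mean of M-values (TMM). PBS replicate 1 stood apart from the other PBS libraries. Col1a1 and Col1a2 took 19.1% of its counts, in contrast to 39.5% and 38.7% in PBS replicates 2 and 3 and to 23.2% to 35.5% in the DOX libraries. Its erythroid markers summed to 155 CPM; the remaining PBS libraries had 3.85 and 10.6 CPM, and DOX replicate 1 had 109 CPM. In bulk samples fewer cells of a type and less RNA per cell cannot be told apart. PBS replicate 1 is the only control in batch 1, so the values within each batch are printed beside the pooled ones.

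Levels between genes were compared as CPM per kilobase of exon, over all 8 libraries. Exon lengths were unions over all transcripts, and the order of genes can differ with other lengths. The union and the longest coding transcript had 4892 and 4832 bases for Scd1 and 3473 and 2697 for Insig2. For Lss they had 10787 and 4667 bases. By the longest coding transcript Insig2 would rank above Scd1, and Lss above Stard4. The ranks that follow are by union length. Stearoyl-CoA desaturase Scd1, which puts the first double bond into saturated fatty acyl chains, had the highest mean level of the 32 at 40.9 ± 14.6 CPM per kilobase (SD, n = 8). Insig2, an anchor that retains SCAP, followed with 37.1 ± 3.15, and the delta-6 desaturase Fads2 with 28.0 ± 5.51. The rank of Scd1 also depended on the library. In PBS replicate 1 Scd1 was at 20.6 CPM per kilobase, below Insig2, Ebp, Insig1 and Fads2, and in DOX replicate 1 it was at 22.4, below Insig2 and Ebp. Ebp, the sterol isomerase, led the sterol enzymes with 26.3 ± 1.50 CPM per kilobase, and the next sterol enzyme, phosphomevalonate kinase Pmvk, was at 6.80 ± 0.930. The lowest levels were those of lanosterol synthase Lss, at 0.194 ± 0.0749, and farnesyl diphosphate synthase Fdps, at 0.0846 ± 0.0630. The Fdps value is uncertain, because 91.4% of its transcript matches 6 other genes at 95% identity or more and the sources used here do not say how such reads were counted. The same holds to a lesser extent for Acat2 (65.6% of the transcript matched, mainly by Acat3), Acaca (64.3%, by a pseudogene), Fdft1 (54.7%) and Idi1 (33.3%).

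No gene of the 32 passed the test between DOX and PBS. In edgeR's quasi-likelihood test with batch as a covariate and Benjamini-Hochberg adjustment over all 15373 genes, the smallest adjusted p among the 32 was 0.995. The test called 0 genes of the whole table at an adjusted p under 0.05 (0% called), and 571 genes (3.71%) had an unadjusted p under 0.05, of which 0 were among the 32. DESeq2 called 26 genes of the table and 0 of the 32. In none of the 32 did all DOX libraries lie on one side of all PBS libraries, against 2.43% of tested genes. By sign alone, 25 of the 32 had a lower fitted level in DOX (78.1%), against 47.0% of all tested genes. Their median log2 fold change was -0.14, and that of all tested genes was 0.017. The count depended on PBS replicate 1 and on the label of DOX replicate 1. Without PBS replicate 1, 5 of 18 sterol enzymes, all 8 fatty acid enzymes and 2 of 6 regulators were lower. Every fit without that library compares the groups in batch 2 only, because batch 1 then holds no PBS library. With DOX replicate 1 counted as PBS, 9 of 17 sterol enzymes, 7 of 8 fatty acid enzymes and 1 of 6 regulators were lower.

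**Figure D1:**
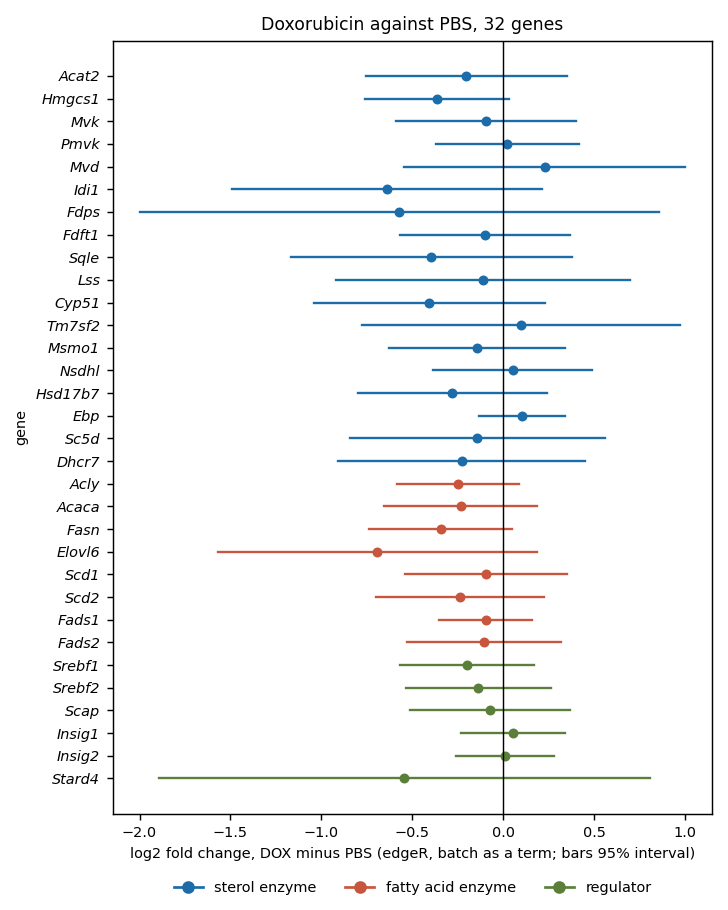
Log2 fold change of DOX against PBS with its 95% interval (x axis) for each of the 32 genes (y axis), grouped by role, from edgeR with batch as a covariate. Every interval spans 0; the points of all 8 fatty acid enzymes lie below 0 and those of the sterol enzymes lie on both sides.

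The fatty acid enzymes shared the sign of their difference, although none of them passed the test. All 8 had a lower fitted level in DOX, with log2 fold changes from -0.69 to -0.096 and a median of -0.24. If DOX replicate 1 was counted as PBS, as its treatment tag has it, 7 of 8 were lower and the median was -0.074. Without that library all 8 were lower and the median was -0.18. Each of the 8 reached its highest CPM in a PBS library, which held for 44.5% of tested genes, and 5 of the 8 did so in PBS replicate 2, against 11.9%. Within batch 1, 6 of 8 were lower in DOX with a median of -0.16 (49.9% of tested genes were lower), and within batch 2 all 8 were lower with a median of -0.31 (48.3% of tested genes).

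Acetyl units reach the pathway through ATP citrate lyase, Acly, and are joined into palmitate by fatty acid synthase, Fasn. Fasn was at 42.0, 47.6 and 39.4 CPM in PBS replicates 1 to 3 and at 27.0, 40.0, 41.3, 26.5 and 34.2 CPM in DOX replicates 1 to 5. DOX replicates 1, 4 and 5 lay below every PBS library, while replicates 2 and 3 lay among them. The log2 fold change was -0.35 ± 0.18 (SE), with a 95% interval of -0.74 to 0.05 and an unadjusted p of 0.0776 in edgeR (adjusted p = 0.995). For Acly the PBS libraries had 66.1, 93.5 and 90.3 CPM and the DOX libraries 55.8, 75.5, 82.8, 64.2 and 64.7 CPM, a log2 fold change of -0.25 ± 0.15. The groups overlapped through PBS replicate 1, and in each batch every DOX library except DOX replicate 2 was below each PBS library of its batch. Acaca, the acetyl-CoA carboxylase that makes malonyl-CoA, averaged 9.91 ± 1.24 CPM over the 3 PBS libraries and 8.34 ± 1.73 CPM over the 5 DOX libraries (mean ± SD).

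Elovl6, which lengthens palmitate toward stearate, had the lowest log2 fold change of the 32, -0.69 ± 0.39, with a 95% interval of -1.57 to 0.19. Its level was 4.62, 2.73 and 2.07 CPM in PBS and 1.60, 1.44, 2.41, 2.89 and 1.35 CPM in DOX. PBS replicate 1 was the highest library, and the remaining PBS libraries lay within the range of the DOX libraries. The unadjusted p was 0.11 (adjusted p = 0.995 in edgeR). Without PBS replicate 1 the log2 fold change was -0.10.

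The desaturases act on the finished chains. Scd1 was at 101, 291 and 276 CPM in PBS and 110, 167, 248, 213 and 194 CPM in DOX. Scd2, its close relative, was at 92.2, 185 and 143 CPM in PBS and 57.3, 102, 176, 113 and 124 CPM in DOX. In both genes PBS replicate 1 and the DOX libraries of batch 1 were low, and the groups overlapped. The log2 fold changes were -0.10 ± 0.20 for Scd1 and -0.24 ± 0.21 for Scd2. Scd1 counts were 1.09 to 1.94 times Scd2 counts over the 8 libraries, and the 2 extremes were both PBS libraries. An aligned stretch of 623 bases of Scd2 matches Scd1 at 95% identity or more.

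Fads1 and Fads2 encode the delta-5 and delta-6 desaturases of polyunsaturated fatty acids. Fads1 was at 53.9, 58.4 and 52.7 CPM in PBS and 46.5, 56.6, 49.0, 53.7 and 51.0 CPM in DOX, with overlapping groups and a log2 fold change of -0.10 ± 0.11. Fads2 was at 69.7, 104 and 119 CPM in PBS and 73.1, 111, 77.7, 90.7 and 92.3 CPM in DOX, with a fold change of -0.11 ± 0.19 on the log2 scale. In batch 2 the 3 DOX libraries lay below both PBS libraries for Acly, Scd1 and Fads2, that is for 3 of the 8 fatty acid enzymes, against 15.3% of tested genes. In batch 1 Fads2 had the opposite order, with PBS replicate 1 below both DOX libraries.

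**Figure D2:**
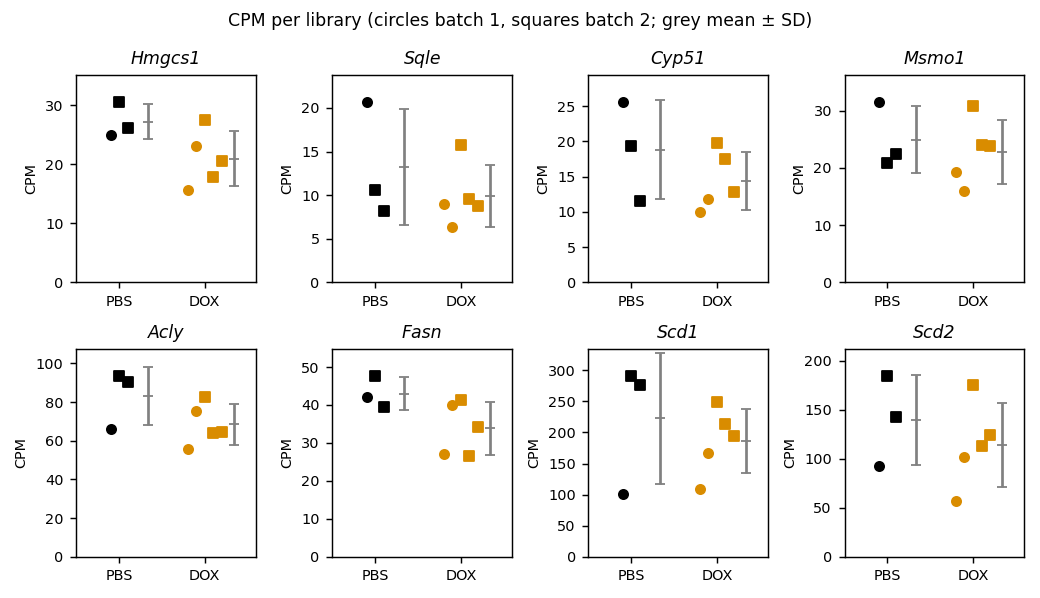
TMM-scaled CPM (y axis) of Hmgcs1, Sqle, Cyp51, Msmo1, Acly, Fasn, Scd1 and Scd2 in each PBS and DOX library (x axis), with points marked by batch and bars at the group means with SD. Sqle, Cyp51 and Msmo1 have their highest point in PBS replicate 1, at 20.7, 25.6 and 31.6 CPM, whereas Scd1 has its lowest point there, at 101 CPM.

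Among the 18 sterol enzymes, 13 had a lower and 5 a higher fitted level in DOX. Their median log2 fold change was -0.14, and none passed the test. This direction rested on PBS replicate 1: without it the median was 0.16, in a fit that compares the groups in batch 2 only. Without DOX replicate 1 the median was -0.049 over the 17 that passed the filter, and with that library counted as PBS it was -0.047. The median was -0.76 within batch 1, where 16 of 18 were lower in DOX, and 0.16 within batch 2, where 13 of 18 were higher. PBS replicate 1 was the highest library of all 8 for 8 of the 18 (44.4%), against 18.4% of tested genes, and DOX replicate 1 was the lowest for 8 of the 18, against 19.1%.

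The mevalonate segment runs from acetyl units to farnesyl diphosphate, and 5 of its 7 genes had a lower fitted level in DOX, with a median of -0.20. Hmgcs1 encodes the cytosolic HMG-CoA synthase that opens the mevalonate pathway. It had the smallest unadjusted p of the 32, 0.0659 (adjusted p = 0.995 in edgeR). Its CPM were 24.9, 30.6 and 26.2 in PBS and 15.6, 23.2, 27.6, 17.9 and 20.5 in DOX, so that 4 of 5 DOX libraries were below every PBS library and DOX replicate 3 was among them. The log2 fold change was -0.37 ± 0.18, with a 95% interval of -0.76 to 0.03.

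Idi1, the isomerase that makes dimethylallyl diphosphate, was at 4.79, 2.43 and 2.04 CPM in PBS and 2.06, 1.81, 2.41, 2.36 and 0.966 CPM in DOX. PBS replicate 1 was above every other library, and the remaining libraries of the groups overlapped. The fitted log2 fold change was -0.64 ± 0.38, with a 95% interval of -1.49 to 0.21 and an unadjusted p of 0.126 (adjusted p = 0.995 in edgeR). Without PBS replicate 1 it was -0.22. Fdps, which joins these isoprenoid units, had 0.958, 0.164 and 0.283 CPM in PBS and 0.445, 0.397, 0.246, 0.139 and 0.217 CPM in DOX. The groups overlapped, and the log2 fold change was -0.57 ± 0.64, or -0.14 without PBS replicate 1. Of the other members, the mevalonate kinase Mvk had a log2 fold change of -0.10 ± 0.22, Pmvk 0.02 ± 0.18, the decarboxylase Mvd 0.23 ± 0.35 and the thiolase Acat2 -0.20 ± 0.25. Each of these fold changes was smaller than its standard error.

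The 3 genes from squalene to lanosterol all had lower fitted levels in DOX, with a median of -0.11. Squalene epoxidase, Sqle, which adds the oxygen needed to close the ring, was at 20.7, 10.6 and 8.21 CPM in PBS and 8.97, 6.38, 15.8, 9.61 and 8.76 CPM in DOX. Its 2 highest libraries were PBS replicate 1 and DOX replicate 3, so the groups overlapped. The log2 fold change was -0.40 ± 0.35, and it was 0.28 without PBS replicate 1. Lss, which closes it, was at 1.08 to 2.84 CPM in PBS and 1.57 to 3.54 CPM in DOX, and the squalene synthase Fdft1 had a log2 fold change of -0.10 ± 0.21.

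After lanosterol, 5 of 8 genes had a lower fitted level in DOX, with a median of -0.14. The segment had the largest contrast between batches of the 3 sterol segments. Within batch 1, 7 of 8 were lower in DOX and the median was -0.86; within batch 2 all 8 were higher and the median was 0.21. Cyp51, the lanosterol demethylase, was at 25.6, 19.3 and 11.6 CPM in PBS and 10.0, 11.9, 19.7, 17.4 and 12.8 CPM in DOX. Msmo1, the C4 methyl sterol oxidase, was at 31.6, 20.8 and 22.4 CPM in PBS and 19.3, 16.1, 30.8, 24.0 and 23.9 CPM in DOX. For both genes PBS replicate 1 was highest and the DOX libraries of batch 1 were low, while DOX replicate 3 lay above the PBS libraries of batch 2. The pooled log2 fold changes were -0.41 ± 0.29 for Cyp51 (0.12 without PBS replicate 1) and -0.15 ± 0.22 for Msmo1.

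Dhcr7, which reduces 7-dehydrocholesterol to cholesterol, followed the same order with 12.5, 6.55 and 7.65 CPM in PBS and 4.91, 6.55, 11.4, 6.88 and 8.59 CPM in DOX. Its log2 fold change was -0.23 ± 0.30. Ebp did not share that order. It was at 59.0, 56.2 and 59.0 CPM in PBS and at 61.6, 62.4, 57.9, 67.1 and 63.3 CPM in DOX, a log2 fold change of 0.10 ± 0.11 with a 95% interval of -0.13 to 0.34. The DOX libraries other than replicate 3 lay above all PBS libraries. Tm7sf2, a C14 sterol reductase, was at 2.99, 1.55 and 0.991 CPM in PBS and at 4.24, 1.54, 1.58, 1.50 and 1.26 CPM in DOX, where replicate 1 alone stood above the other DOX libraries.

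**Figure D3:**
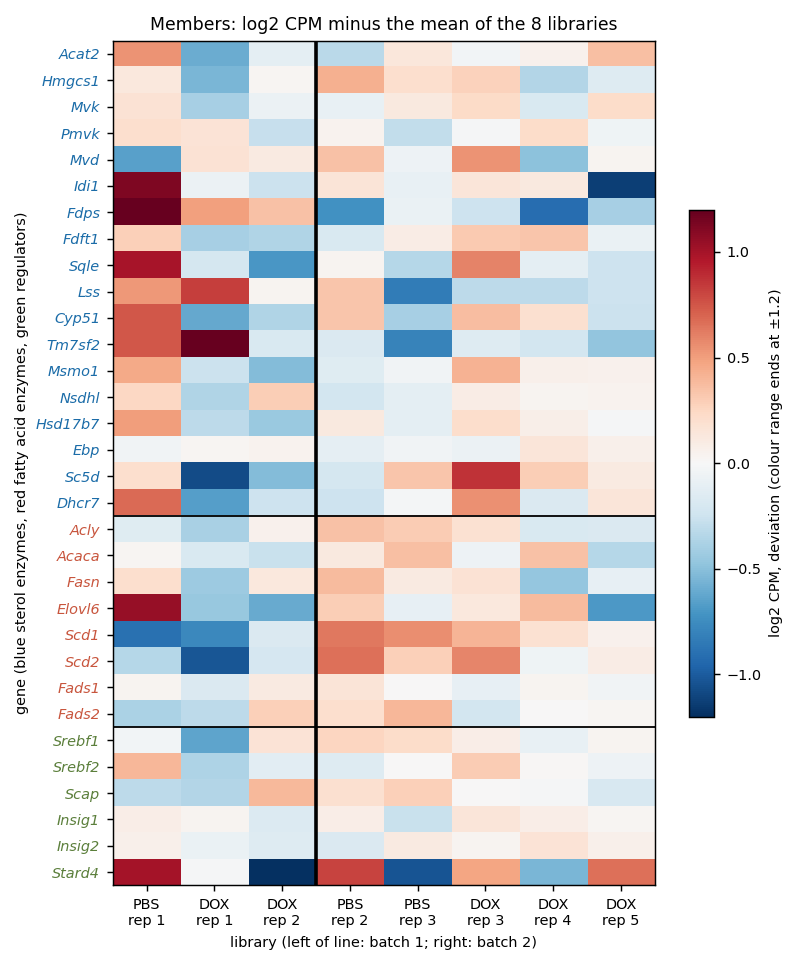
Deviation of log2 CPM from the gene's mean over the 8 libraries (colour) for each of the 32 genes (rows, grouped by role) in each library (columns, ordered by batch and group). Of the sterol enzymes 8 of 18 are highest in PBS replicate 1 and 8 of 18 are lowest in DOX replicate 1, and 5 of 8 fatty acid enzymes are highest in PBS replicate 2.

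Promoters of the sterol enzymes are shown because SREBP acts there beside NF-Y, the factor that binds the CCAAT box. RefSeq promoter entries on GRCm38.p6, from 250 bases before to 50 bases after the start site, were present for 25 of the 32 genes. In the windows of 70 bases that follow, capitals mark the letters searched, on the gene's strand; ATTGG is CCAAT on the opposite strand. Hmgcs1 carries the sterol regulatory element searched, TCACNCCAC, which begins 137 bases before the start. The other 4 windows carry a CCAAT box and belong to the genes with the smallest interaction p that had an entry (Msmo1, Dhcr7, Cyp51) and to Srebf2.
Hmgcs1, chr13:119690184-119690253, plus strand: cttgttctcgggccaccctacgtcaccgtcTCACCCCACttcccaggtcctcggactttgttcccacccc
Msmo1, chr8:64733596-64733665, minus strand: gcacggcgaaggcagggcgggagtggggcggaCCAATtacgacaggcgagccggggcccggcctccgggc
Dhcr7, chr7:143830133-143830202, plus strand: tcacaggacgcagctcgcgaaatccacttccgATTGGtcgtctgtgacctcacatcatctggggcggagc
Cyp51, chr5:4104698-4104767, minus strand: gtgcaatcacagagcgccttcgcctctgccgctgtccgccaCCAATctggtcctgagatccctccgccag
Srebf2, chr15:82147102-82147171, plus strand: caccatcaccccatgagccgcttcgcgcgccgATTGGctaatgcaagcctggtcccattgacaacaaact

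A CCAAT match on either strand was present in 14 of 15 sterol enzymes with an entry (93.3%), in 2 of 5 fatty acid enzymes (Acly and Fasn) and in 4 of 5 regulators, against 42.8% of the 10922 tested genes with an entry. TCACNCCAC was found in 1 of 15 sterol enzymes, Hmgcs1, and in 0 of the 5 fatty acid enzymes and 0 of the 5 regulators, against 1.41% of tested genes. The E-box CACGTG can share letters with the end of TCACNCCAC, although none of the 25 genes carried both. It was found in 3 of 15 sterol enzymes (Hsd17b7, Sc5d and Dhcr7), in 0 of 5 fatty acid enzymes and in 2 of 5 regulators, against 11.4%. These counts describe letters in a fixed window and say nothing of binding in these cells. Hmgcs1 and Msmo1, with these windows, had pooled log2 fold changes of -0.37 and -0.15.

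The regulators set the activity of both pathways. Srebf1 was at 35.7, 43.9 and 42.7 CPM in PBS and 23.6, 41.0, 38.7, 34.5 and 37.4 CPM in DOX, with a log2 fold change of -0.20 ± 0.17. Srebf2 was at 33.2, 22.6 and 25.3 CPM in PBS and 19.5, 23.2, 31.2, 25.5 and 24.1 CPM in DOX, with a log2 fold change of -0.14 ± 0.18. DOX replicate 1 was the lowest library for both. PBS replicate 1 was the highest library for Srebf2 and was below the other PBS libraries for Srebf1, so that counts of Srebf1 were 1.08 times those of Srebf2 there and 1.94 and 1.68 times in PBS replicates 2 and 3. In the DOX libraries this ratio was 1.21, 1.77, 1.24, 1.36 and 1.55.

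Insig1, an SREBP target that retains SCAP, was at 70.2, 70.3 and 55.4 CPM in PBS and 68.0, 59.2, 73.5, 70.2 and 67.8 CPM in DOX. Insig2, which is regulated largely apart from SREBP, was at 134, 114 and 138 CPM in PBS and 121, 115, 132, 144 and 134 CPM in DOX. The groups overlapped in both, and the log2 fold changes were 0.05 ± 0.13 and 0.01 ± 0.12. Scap had a log2 fold change of -0.07 ± 0.20. Stard4, a carrier that moves sterol between membranes, had -0.54 ± 0.61 at 0.447 to 2.46 CPM over the 8 libraries. Of the 6 genes of this group 4 had lower fitted levels in DOX, with a median of -0.10, which was -0.19 within batch 1 and 0.14 within batch 2. Without DOX replicate 1 the median was -0.028, with 4 lower and 2 higher. With that library counted as PBS it was 0.024, with 1 lower and 5 higher.

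The pathways were then compared by the mean of their members' log2 CPM in each library, as deviations from the mean over the libraries. Sterol enzymes deviated by 0.46, -0.04 and -0.13 in PBS replicates 1 to 3 and by -0.14, -0.18, 0.21, -0.07 and -0.11 in DOX replicates 1 to 5. Fatty acid enzymes deviated by -0.06, 0.35 and 0.24 in PBS and by -0.47, -0.08, 0.14, 0.03 and -0.15 in DOX. PBS replicate 1 was thus the highest library for sterol enzymes and lay below both other PBS libraries for fatty acid enzymes. Sterol enzymes minus fatty acid enzymes came to -2.04 in PBS replicate 1, and to -2.24 and -2.66 in DOX replicates 1 and 2 of the same batch. In batch 2 the order was the opposite one, with -2.95 and -2.93 in PBS and -2.49, -2.66 and -2.53 in DOX. The sterol enzymes' mean differed between DOX and PBS by -0.63 in batch 1 and by 0.09 in batch 2, and the fatty acid enzymes' mean by -0.22 and -0.29.

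**Figure D4:**
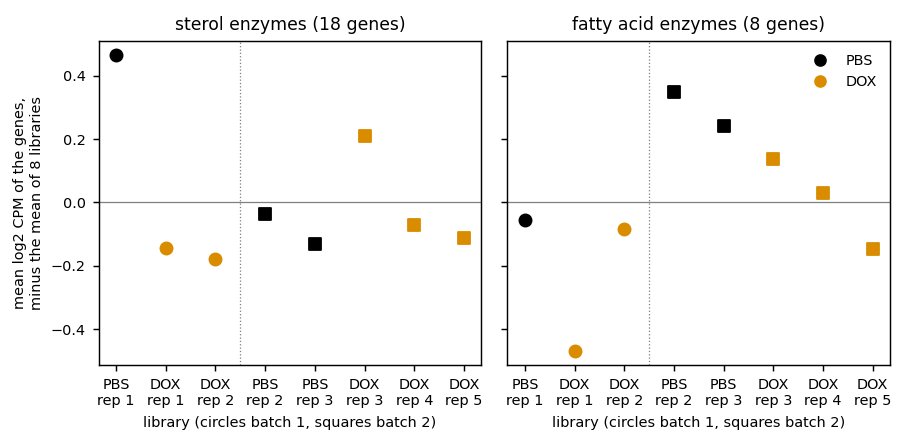
Mean log2 CPM deviation (y axis) of sterol enzymes and fatty acid enzymes in each library (x axis), marked by group and batch. The sterol enzymes peak in PBS replicate 1 at 0.46, and the fatty acid enzymes peak in PBS replicate 2 at 0.35 and are lowest in DOX replicate 1 at -0.47.

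Whether the difference between DOX and PBS itself changed with batch was tested by an interaction term, which rests on the single PBS library of batch 1. It was fitted with DOX replicate 1 as DOX or left out, and not with that library as PBS. No gene of the table was called by edgeR (0%), and the smallest adjusted p among the 32 was 0.238. At an unadjusted p under 0.05 were 11 of the 32 genes, of which 8 were among the 18 sterol enzymes (44.4%), against 1806 of 15373 tested genes (11.7%). Of the fatty acid enzymes Scd1 and Fads2 were at that level, and of the regulators Srebf2. DESeq2 called 269 genes for this term and 0 of the 32, and without DOX replicate 1 edgeR called 10 genes and 0 of the 32. By sign alone, the difference was opposite in the batches for 13 of 18 sterol enzymes (72.2%), 2 of 8 fatty acid enzymes (25.0%) and 5 of 6 regulators (83.3%), against 56.8% of tested genes.

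Msmo1 had the smallest interaction p, with a log2 difference of batch 2 minus batch 1 of 1.12 ± 0.28 (adjusted p = 0.238 in edgeR). In batch 1 both DOX libraries were below PBS replicate 1, and in batch 2 all 3 DOX libraries were above both PBS libraries, an order that 5.99% of tested genes had. For Sqle the term was 1.7 ± 0.47 (adjusted p = 0.276), for Dhcr7 1.46 ± 0.43 (adjusted p = 0.296) and for Cyp51 1.34 ± 0.42 (adjusted p = 0.308). Scd1 and Fads2 had terms of the other sign, -0.83 ± 0.33 (adjusted p = 0.376) and -0.76 ± 0.32 (adjusted p = 0.404), and the reverse order of libraries, which 6.15% of tested genes had. All of these adjusted values missed the threshold. Both batch 1 DOX libraries lay below PBS replicate 1 for 20 of the 32 genes, against 30.0% of tested genes. In batch 2 all 3 DOX libraries were above both PBS libraries for Msmo1 and Nsdhl, against 16.0% of tested genes.

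**Figure D5:**
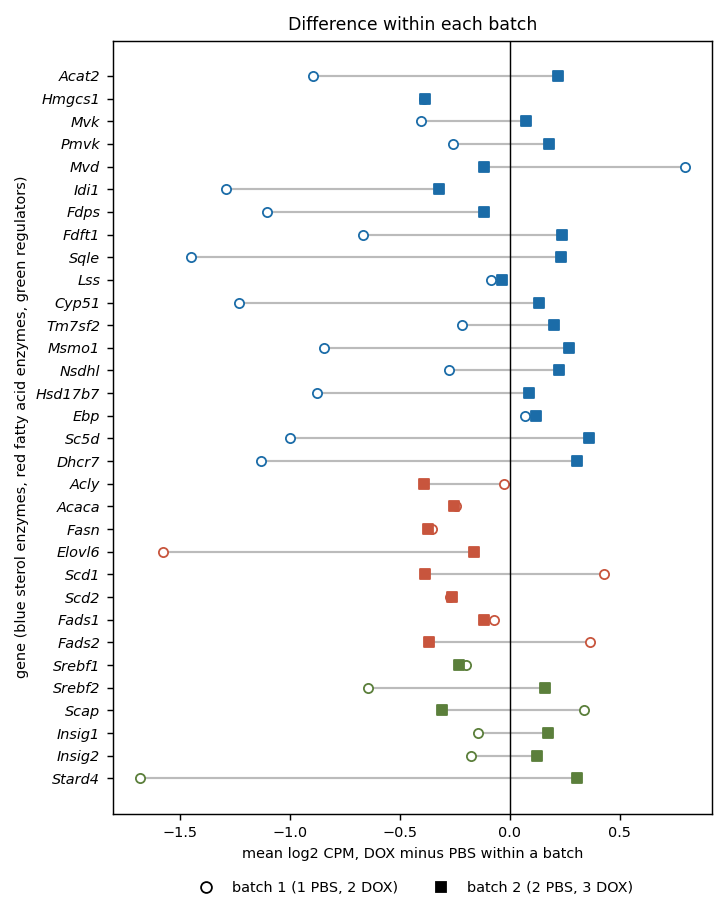
Log2 difference of DOX from PBS within a batch (x axis) for each of the 32 genes (y axis), coloured by role. Open circles mark batch 1 (2 DOX libraries and 1 PBS library) and filled squares mark batch 2 (3 and 2 libraries). Sterol enzymes lie mostly below 0 in batch 1 and above 0 in batch 2 (medians -0.76 and 0.16). All 8 fatty acid enzymes lie below 0 in batch 2.

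Between batches, with the treatment group as a covariate, edgeR called 14 genes (0.0911%) and 0 of the 32. Scd1 came closest of the 32, at 126 ± 35.7 CPM in batch 1 (SD, n = 3) and 244 ± 40.9 CPM in batch 2 (SD, n = 5), a log2 difference of 0.94 ± 0.21 (adjusted p = 0.134 in edgeR). Scd2 was at 83.7 ± 23.3 and 148 ± 31.4 CPM, a log2 difference of 0.80 ± 0.22 (adjusted p = 0.191 in edgeR). For both desaturases every batch 2 library was above every batch 1 library, as it was for 4.89% of tested genes, whichever group the library belonged to. DESeq2 called both, with adjusted p of 0.000682 for Scd1 and 0.0122 for Scd2. Without DOX replicate 2 edgeR called both as well, with adjusted p of 0.0136 and 0.0306, and also Tm7sf2 with 0.0464. Limma-voom with quality weights called neither Scd1 nor Scd2, with adjusted p of 0.106 and 0.201. In edgeR 0 of the 32 were called without PBS replicate 1, 2 or 3, or without DOX replicate 1 or 3.

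Tm7sf2 and Fdps went the other way. Tm7sf2 was at 2.92 ± 1.35 CPM in batch 1 and 1.38 ± 0.250 CPM in batch 2 (adjusted p = 0.266 in edgeR). Fdps was at 0.60 ± 0.311 and 0.210 ± 0.0591 CPM (adjusted p = 0.325 in edgeR), with every batch 2 library below every batch 1 library, as for 4.38% of tested genes. By sign, 1 of 8 fatty acid enzymes, 8 of 18 sterol enzymes and 0 of 6 regulators had a lower fitted level in batch 2, against 51.6% of all tested genes. At an unadjusted p under 0.05 were 4 of the 32, against 14.6% of tested genes.

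Other genes of both pathways were described from 3 lists, and none of their genes passed the test between DOX and PBS in edgeR. Of 18 genes of sterol supply and disposal, such as lipoprotein receptors, sterol transporters and esterification enzymes, 14 had a lower and 4 a higher fitted level in DOX, with a median of -0.086. Of 8 further genes of SREBP processing, 4 were lower and 4 higher, with a median of -0.047. Of 21 tested genes of fatty acid handling, 13 were lower and 8 higher, with a median of -0.037. At an unadjusted p under 0.05 was 1 gene of the 3 lists, against 3.71% of all tested genes. It was the acyl-CoA synthetase Acsl1, at -0.44 ± 0.19 with an unadjusted p of 0.0447 (adjusted p = 0.995 in edgeR). Next by p among the lower genes were the elongase Elovl5 at -0.29 ± 0.14 and the dehydratase Hacd3 at -0.22 ± 0.12. Among the higher genes they were Acsl3, another acyl-CoA synthetase, at 0.30 ± 0.16, the diacylglycerol acyltransferase Dgat1 at 0.20 ± 0.14 and Spring1, a factor needed for SREBP processing, at 0.24 ± 0.20.

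Among markers of other cells, the erythroid ones separated the batches and were higher in batch 1. Scd1 and Scd2 separated them in the opposite direction, and Fdps in the same direction. Erythroid markers, 7 of 7 in the table, summed to 155, 109 and 38.3 CPM in the batch 1 libraries and 2.32 to 10.6 CPM in batch 2. Adipocyte markers, 5 of 8 in the table, summed to 17.6 to 33.3 CPM in batch 1 and 2.76 to 17.6 CPM in batch 2, so the batches overlapped, and Plin1 and Cfd were at 0 to 0.142 and 0 to 0.223 CPM over the 8 libraries. Endothelial markers did not follow batch and summed to 25.8 CPM in PBS replicate 1, 25.5 CPM in DOX replicate 2 and 7.64 to 11.5 CPM elsewhere. The sum of osteoblast markers was lowest in PBS replicate 1, at 175046 CPM, and next in DOX replicate 1, at 211815 CPM. It was mostly Col1a1 and Col1a2, at 82420 and 64520 CPM in PBS replicate 1. These genes, Bglap, Sp7 and Phex were lowest in PBS replicate 1, whereas Alpl, Runx2 and Ibsp were lowest in DOX replicate 1. Dmp1 was at 897 CPM in PBS replicate 1 and at 500 and 533 CPM in PBS replicates 2 and 3. Over the 8 libraries neutrophil markers summed to 0.538 to 122 CPM, macrophage markers to 2.48 to 8.01 CPM and muscle markers to 0.968 to 3.57 CPM. The part of these differences in the results for the 32 genes was not tested.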

How the data were processed

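Values are raw read counts per gene, deposited by the authors as 1 table of 8 libraries. The submitters' processing notes name featureCounts 2.0.1, STAR 2.7.9a, SAMtools 1.17, Trim Galore 0.6.6, MultiQC 1.7, FastQC 0.11.5 and the mouse build GRCm39. The sources used here do not give the annotation, the strand setting or the treatment of multiply mapped reads, and the SMART-Seq kit named in the labels does not mark strand, so reads of overlapping genes cannot be told apart. The smallest gene total was 10 counts. The titles call the libraries biological replicates.

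Groups followed the sample titles. Counts were filtered (filterByExpr), TMM-scaled and tested with edgeR 4.0.16 in R 4.3.3 (two-sided quasi-likelihood test, batch plus group; batch by group for the interaction), adjusted by Benjamini-Hochberg over 15373 genes at a threshold of 0.05. CPM are counts over TMM-scaled totals; log2 CPM used a prior count of 2. Library totals are in the report; p-values rest on the spread between 3 and 5 libraries. Alternatives were DESeq2 1.42.0, limma 3.58.1 voom with quality weights, other scalings and filters, a replicate block, batch 2 alone, and leaving out libraries. The scripts were tested on simulated data.

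Lengths are GENCODE M21 exon unions on GRCm38 and may differ from the annotation counted. Copies were found with BLAST 2.17.0 at 95% identity over 100 bases. Python 3.11.15 with matplotlib 3.10.9 drew the plots. The 32 genes, the lists and the tests were chosen with earlier results of these data known. Values per library are given for the 4 genes with the smallest p in each comparison, the gene with the most counts in each role and the paralog pairs; Acly was added after its values were seen. Of the other pathway genes, the 3 with the smallest p in each direction are named.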

Additional observations from a re-analysis of the deposited data

Results flagged for a closer look

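Of 35 values tested in the DOX group (the 32 genes and the 3 pathway means), 3 had 1 library far from the other 4, and chance alone sets about 1 in 20 such groups apart. Lss was at 3.54 CPM in DOX replicate 1, against 2.01 CPM in the next library. Tm7sf2 was at 4.24 CPM in DOX replicate 1, against 1.58 CPM in the next. The mean log2 CPM of the sterol enzymes was 2.94 in DOX replicate 3, against 2.66 in the next.

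The difference between DOX and PBS took opposite signs in the batches, library by library, for 3 genes, and no such interaction passed the threshold. Msmo1 was lower in both DOX libraries of batch 1 and higher in all 3 of batch 2, as were 5.99% of tested genes, with an interaction term of 1.12 on the log2 scale (adjusted p = 0.238 in edgeR). Scd1 and Fads2 had the reverse order, as did 6.15% of tested genes, with terms of -0.83 (adjusted p = 0.376 in edgeR) and -0.76 (adjusted p = 0.404 in edgeR). Each rests on the single PBS library of batch 1.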

How the results depend on the processing

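The number of genes called between DOX and PBS was 0 under every alternative except DESeq2, which called 26 (18 higher, 8 lower), and no alternative called any of the 32. The fatty acid enzymes' median log2 fold change was negative under all 19 alternatives, from -0.31 to -0.074 (-0.29 to -0.16 with single libraries left out). All 8 were lower under 16 of them and 7 of 8 under 3 (without PBS replicate 2, without PBS replicate 3, and counting DOX replicate 1 as PBS). The sterol enzymes' median was positive under 4 alternatives. It was 0.16 without PBS replicate 1, 0.18 in batch 2 alone, 0.18 without PBS replicate 1 and DOX replicate 1 together, and 0.048 in limma-voom. All of these but limma-voom compare DOX with PBS in batch 2 only, because batch 1 then has no PBS library. They repeat 1 contrast and are not separate checks, for either pathway. Leaving out single libraries gave the sterol enzymes a median of -0.31 to 0.16. Without DOX replicate 1 it was -0.049, 4 genes were called between batches (14 with it) and 10 for the interaction (0 with it), Pmvk was at -0.020, Tm7sf2 at -0.16 and Sc5d at 0.051, and Fdps did not pass the filter. Scaling by library totals without TMM, chosen after seeing the data, put the median of all tested genes at 0.11, the fatty acid enzymes' at -0.16 and the sterol enzymes' at -0.090. Between batches, DESeq2 called 518 genes and 2 of the 32. Genes called there were 5 with DOX replicate 1 counted as PBS, 0 without PBS replicate 1 and DOX replicate 1 together and 8 with library totals, and 0 to 938 with single libraries left out (0 without PBS replicate 1, 938 without DOX replicate 2), with 0 to 3 of the 32. The interaction gave 269 genes in DESeq2 and 0 to 58 with single libraries left out, with 0 to 0 of the 32; without PBS replicate 1 it cannot be estimated. Samples with the same replicate number had correlations of their deviations of 0.248, -0.054 and 0.245. The values of 0.248 and 0.245, from pairs within a batch, were the highest of all pairs of a PBS and a DOX library. Other pairs within a batch had 0 to 0.178. The numbers were not taken to pair the libraries, a question these correlations do not settle. With the replicate number as a block, 0 genes were called and the medians were -0.21 for sterol and -0.27 for fatty acid enzymes.

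Fitted log2 fold changes kept their sign in 528 of 602 fits of single genes, including all settings that compare the groups in batch 2 only. They took the other sign in voom for Acat2 0.11, Mvk 0.029, Mvd -0.0032, Fdft1 0.094, Msmo1 0.11, Sc5d 0.22, Dhcr7 0.10, Srebf2 0.031. With the replicate block they did so for Pmvk -0.025, Lss 0.19, Insig2 -0.063. With DOX replicate 1 counted as PBS the values were Acat2 0.064, Mvk 0.056, Pmvk -0.049, Fdft1 0.034, Tm7sf2 -0.31, Sc5d 0.16, Dhcr7 0.073, Scd1 0.0011, Srebf1 0.020, Srebf2 0.038, Scap 0.067. In batch 2 alone they were Acat2 0.22, Mvk 0.087, Mvd -0.068, Fdft1 0.25, Sqle 0.28, Cyp51 0.11, Msmo1 0.29, Hsd17b7 0.092, Sc5d 0.38, Dhcr7 0.34, Srebf2 0.17, Stard4 0.12. Without PBS replicate 1 and DOX replicate 1 together they were Acat2 0.22, Mvk 0.085, Mvd -0.070, Fdft1 0.25, Sqle 0.27, Cyp51 0.11, Msmo1 0.28, Hsd17b7 0.090, Sc5d 0.38, Dhcr7 0.34, Srebf2 0.17, Stard4 0.12, and with library totals Scap 0.013. With single libraries left out, the values that changed sign ranged for Acat2 -0.44 to 0.22, Mvk -0.21 to 0.091, Pmvk -0.11 to 0.18, Mvd -0.064 to 0.45, Fdft1 -0.28 to 0.25, Sqle -0.71 to 0.28, Lss -0.36 to 0.26, Cyp51 -0.73 to 0.12, Tm7sf2 -0.16 to 0.28, Msmo1 -0.32 to 0.29, Nsdhl -0.030 to 0.23, Hsd17b7 -0.46 to 0.10, Sc5d -0.44 to 0.39, Dhcr7 -0.48 to 0.34, Scd1 -0.37 to 0.013, Fads2 -0.35 to 0.029, Srebf2 -0.28 to 0.18, Scap -0.30 to 0.025, Insig1 -0.069 to 0.18, Insig2 -0.10 to 0.13, Stard4 -1.07 to 0.13. The cause was not tested. At these group sizes, genes counted in few reads (Fdps, Stard4, Lss) had standard errors of the fold change from 0.36 to 0.64.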
